A study of Homo sapiens with 9 samples.

Results

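Laminins, integrins and the genes of elastic fibres are described here in human spinal cord organoids (SCOs) exposed to valproic acid (VPA) with or without Rapamycin. Members were chosen by a rule on gene names, with earlier results of these data known. The rule takes protein-coding genes named LAMA, LAMB or LAMC, ITGA or ITGB, FBLN or FBN with a number, and ITGAV, ELN, NID1, NID2, HSPG2 and AGRN. This gave 44 genes of the 31589 that have counts in at least 1 of the 3 deposited tables, 17226 of them protein-coding. The SCOs were derived from WTC, an established human induced pluripotent stem cell line whose genotype the labels give as WT and which the study's methods describe as edited with a reporter in the SOX10 locus and grown as single-cell clones. Bulk RNA sequencing covered 3 libraries of each condition: vehicle (FGF), VPA, a histone deacetylase inhibitor, and VPA + Rapamycin, where Rapamycin inhibits mTOR, with FGF in all 3 conditions by the study's text. The labels give 96 h of exposure. The study's main text describes a shorter exposure to VPA, while legends in its supplement describe one as long as in the labels, for other assays. The labels do not tie a library to a clone. The study's text says that organoids were pooled by clone, from 3 clones, for the sequencing of vehicle and VPA. It also describes organoids of 3 clones exposed to VPA and to VPA + Rapamycin. Doses are not in the labels.

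Laminins are heterotrimers of an α, a β and a γ chain that polymerise into the sheet of every basement membrane, where nidogens and the heparan sulfate proteoglycans perlecan and agrin tie that sheet to collagen IV. Integrins are αβ heterodimers in the cell membrane: some α chains bind laminins, others collagens, others the RGD tripeptide of fibronectin and related proteins. Elastic fibres are made of cross-linked elastin on a scaffold of fibrillin microfibrils, with fibulins helping their assembly. In the developing neural tube, the neuroepithelium sits on a laminin sheet, and neural crest cells leave through it and migrate on fibronectin and laminin.

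The study followed the FOS and JUN family factors that make up AP-1, so the promoters of the members were searched for the AP-1 site TGAGTCA or its complement TGACTCA on the reference sequence (RefSeq promoters on GRCh38.p14, 300 bases around each annotated start). The table held promoters for 33 of the 44 members. Those it did not match include AGRN, ELN, ITGA3, ITGA7, ITGA9, ITGB2, ITGB3, ITGB4, LAMA1 and LAMC3, so no share over the members is drawn. Of all 35116 promoters in the table, 4.95% held the site. The matched members had 43 promoters, and the site was found in 3 genes, a count of genes and not of promoters. Its places are printed here in 30-base windows with the site in capitals, because 1 of these genes, LAMA3, rose with VPA.
LAMA3, chr18:23872884-23872913, plus strand: ctggcacaggcTGACTCAtgtgtgaagttt
LAMA3, chr18:23872940-23872969, plus strand: ccttcctcaccTGAGTCAggcaggcccggg
LAMB3, chr1:209651423-209651452, minus strand: gtcagccactcTGACTCAttcactttgggc
ITGA5, chr12:54419254-54419283, minus strand: cctccccgcgtTGAGTCAttcgcctctggg
The first base of the site was at -125 and -69 from an annotated start in LAMA3, at -67 in LAMB3 and at -6 in ITGA5. This LAMA3 start lies inside the gene, which begins at chr18:23689443, and counts per gene do not tell which start was used. Of these genes LAMB3 was too low to test, and ITGA5 did not pass the test in any comparison, with log2 fold changes of 0.25 with VPA and -0.16 with Rapamycin added. A match to these letters is a description of the sequence and was not tested for binding.

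The libraries held 15290299 to 17417338 counts on genes, at which 3 counts, the floor used here, equal 0.170 to 0.198 CPM, the unit that scales counts to the size of the library. These floors cover counting error only. The mean chi-square of a gene was 12.2 to 35.0 between vehicle pairs, 4.53 to 7.03 between VPA pairs and 6.14 to 13.2 between VPA + Rapamycin pairs, so that vehicle and VPA + Rapamycin overlapped in this measure. Vehicle library 3 stood apart for genes of connective tissue and neural crest, with 578 counts of LUM against 82 and 67 in the other vehicle libraries, and 307 counts of TFAP2B against 2 and 2. Neural genes were abundant, as the label says: SOX2, PAX6 and NES had means of 272, 311 and 781 CPM in vehicle. SOX10, the gene of the reporter and a marker of neural crest, had 347, 248 and 230 counts in vehicle, 5, 10 and 9 with VPA, then 8, 37 and 63 once Rapamycin was added. In bulk RNA a change in the number of cells of a type and a change in RNA per cell cannot be told apart, and this holds for each result that follows.

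In vehicle SCOs the members spanned a wide range of levels, compared here as CPM per kb of the gene length in the deposited tables. ITGB1, the β chain shared by most integrins of neural tissue, was highest at 63.0 CPM per kb, followed by AGRN at 53.0 and NID1 at 36.2. Among laminin chains, LAMC1 (22.9 CPM per kb) and LAMB2 (18.2 CPM per kb) led, and LAMA1 and LAMA5 were close to each other at 15.5 and 12.6 CPM per kb. LAMB1 stood at 3.26 and LAMA4 at 2.26 CPM per kb, and LAMA2, LAMA3, LAMB3, LAMB4 and LAMC3 were below 0.2 CPM per kb. The laminin receptor chain ITGA6 led the α chains at 33.3 CPM per kb, before ITGAV at 23.1 and ITGA7 at 14.04. At the other end, all 4 collagen-binding α chains (ITGA1, ITGA2, ITGA10 and ITGA11) lay between 0.0718 and 0.251 CPM per kb. FBN2 was the highest fibrillin at 14.95 CPM per kb, ELN stood at 1.28, and FBLN5 at 0.161.

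**Figure D1:**
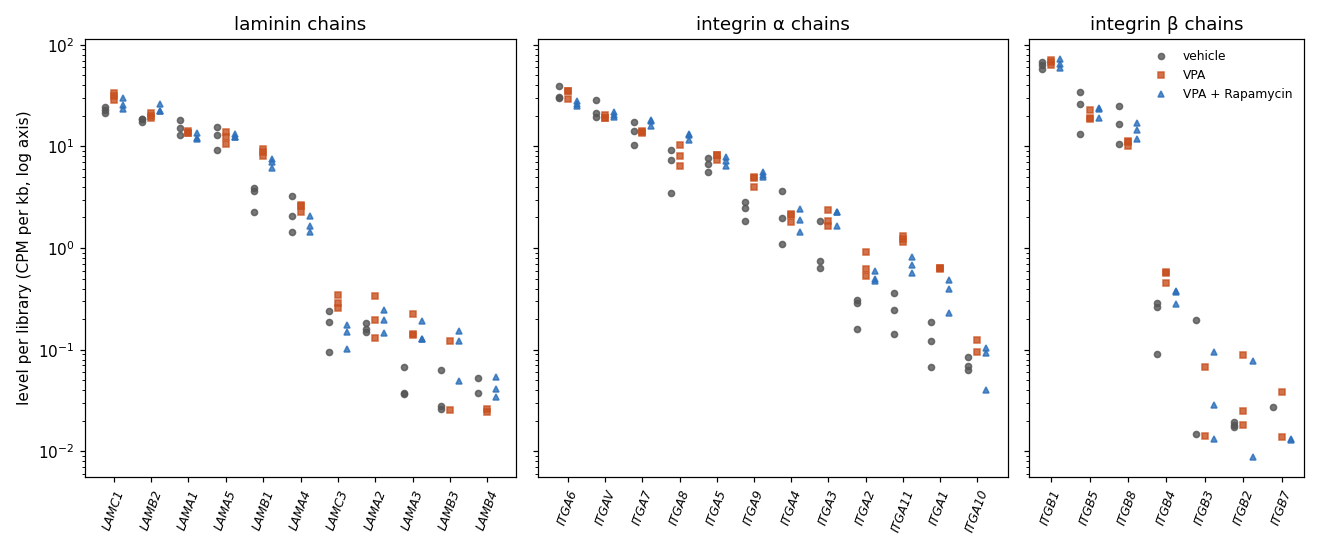
Level of laminin chains, integrin α chains and integrin β chains in each library, in CPM per kb of gene length on a log axis, ordered by the vehicle mean, with circles for vehicle, squares for VPA and triangles for VPA + Rapamycin (libraries at 0 and chains not named on the axis are not drawn). LAMB1 and the collagen-binding chains ITGA1, ITGA2 and ITGA11 sit higher in all 3 VPA libraries than in all 3 vehicle libraries, while ITGB1, at 63.0, 67.0 and 65.5 CPM per kb on average, overlaps between all conditions.

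Exposure to VPA raised 12 of the 36 members tested (33.3%) and lowered 2 (5.56%) against vehicle, where a call is an adjusted p not above 0.05 in the quasi-likelihood test of edgeR over 17360 genes. Over those genes 16.4% were called higher and 15.7% lower, so the share of members called higher was above that of all genes and the share called lower was below it. The members that rose were FBLN5, ITGA1, ITGA11, LAMA3, FBLN2, ITGA2, LAMB1, ITGB4, ELN, ITGA9, LAMC1 and FBN2, and those that fell were FBN3 and ITGB8. The median log2 fold change of the members tested was 0.30, with 24 of 36 estimates above 0, where the median over all genes was -0.003. Among the members not tested, ITGA10, ITGB2, ITGB3, ITGB6, ITGB7, LAMB3 and LAMB4 were too low to test here, with at most 14 counts in any of the 9 libraries. Without vehicle library 3, which stood apart, 15 members were called higher and 2 lower. The calls over all genes in that fit are not given here, so this count is not read as particular to the members. FBLN5 and LAMA3, low in vehicle, passed the filter on low counts through their VPA libraries. The counts of calls describe the members above the filter and are not a test of the group.

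**Figure D2:**
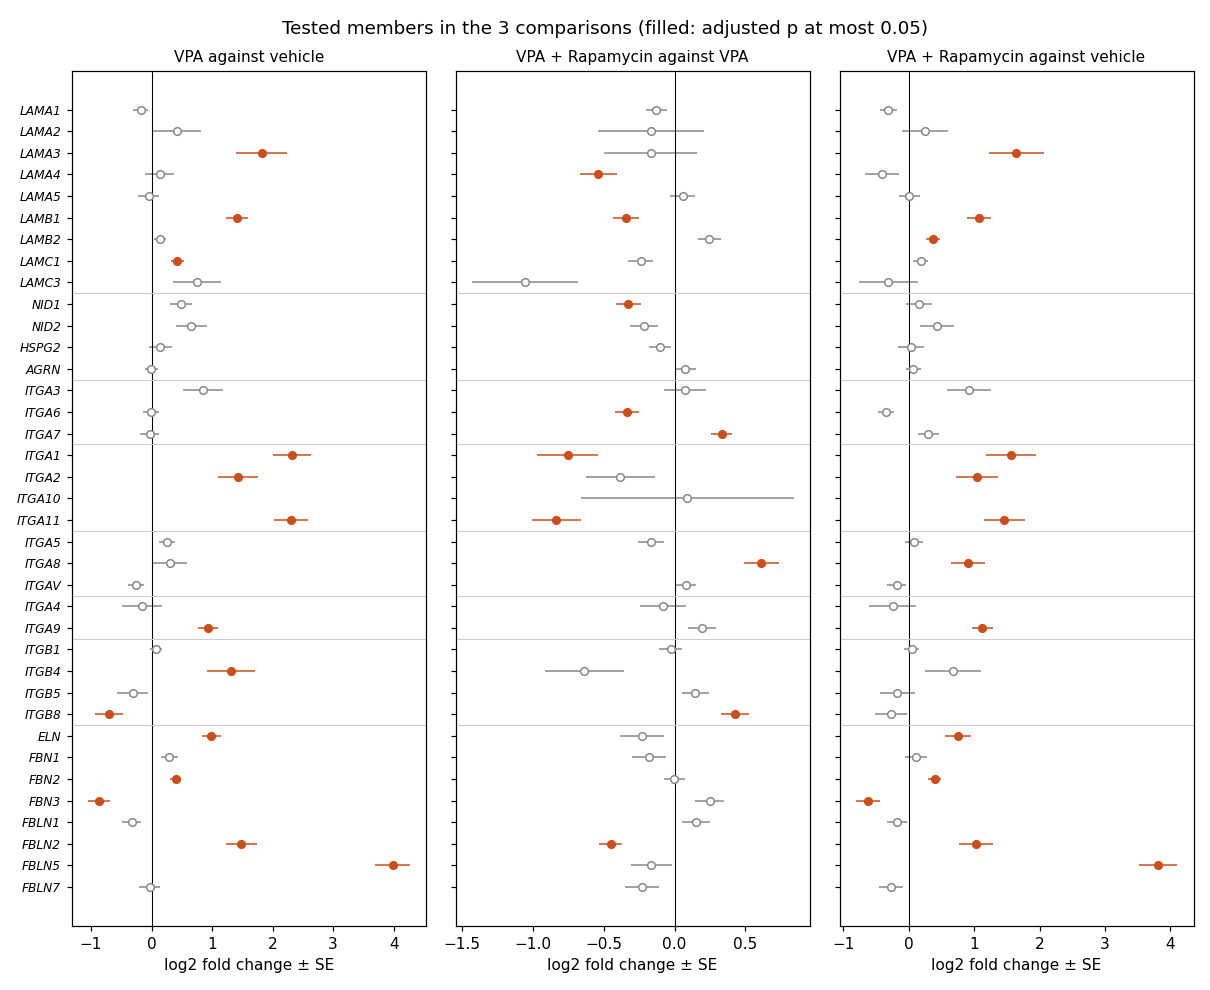
Log2 fold change with its standard error of each member tested, in VPA against vehicle, VPA + Rapamycin against VPA and VPA + Rapamycin against vehicle (the 3 panels have axes of their own), grouped by role from laminin chains at the top to fibulins at the bottom, filled where the edgeR adjusted p is at most 0.05. In the first panel 12 filled points lie right of 0 and 2 left of it; in the second 3 lie right and 7 left; in the third 12 lie right and 1 left.

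Adding Rapamycin to VPA lowered 7 of 37 members tested (18.9%) and raised 3 (8.11%) against VPA alone, where 3.73% of all 17317 genes tested were called lower and 3.01% higher (edgeR, adjusted p at most 0.05). Those that fell were FBLN2, ITGA11, LAMA4, ITGA6, NID1, LAMB1 and ITGA1, and those that rose were ITGA8, ITGA7 and ITGB8. Changes were smaller than those with VPA: the log2 fold changes of these 10 ran from -0.84 to 0.61, and the median of the members was -0.16 beside 0.004 over all genes. When all 9 libraries shared 1 fit, none of the 10 passed (edgeR adjusted p from 0.145 for ITGA11 to 0.439 for NID1), 6 members were lower and 3 higher at an unadjusted p under 0.05, and the calls over all genes fell to 69 lower and 44 higher. DESeq2 on the 6 libraries gave 7 lower and 4 higher, and its calls over all genes are not given here.

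Against vehicle, SCOs exposed to VPA + Rapamycin had 12 of 36 members higher (33.3%) and 1 lower (2.78%), where 9.81% of 17383 genes were called higher and 9.22% lower (edgeR, adjusted p at most 0.05). The higher ones were FBLN5, LAMA3, ITGA1, ITGA11, ITGA9, LAMB1, ITGA2, FBLN2, ITGA8, ELN, FBN2 and LAMB2, and the lower one was FBN3. The median of the members was a log2 fold change of 0.17 beside -0.001 over all genes. This comparison shares its vehicle libraries with the first and its treated libraries with the second, so the 3 sets of values are not independent of each other. Fewer members were called higher with 1 library left out: 5 without any 1 of the VPA + Rapamycin libraries and 7 without vehicle library 2, against 15 without vehicle library 1. Without vehicle library 3, 12 were called higher and 3 lower. The calls over all genes in these fits are not given here, so the counts do not show a shift particular to the members.

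**Figure D3:**
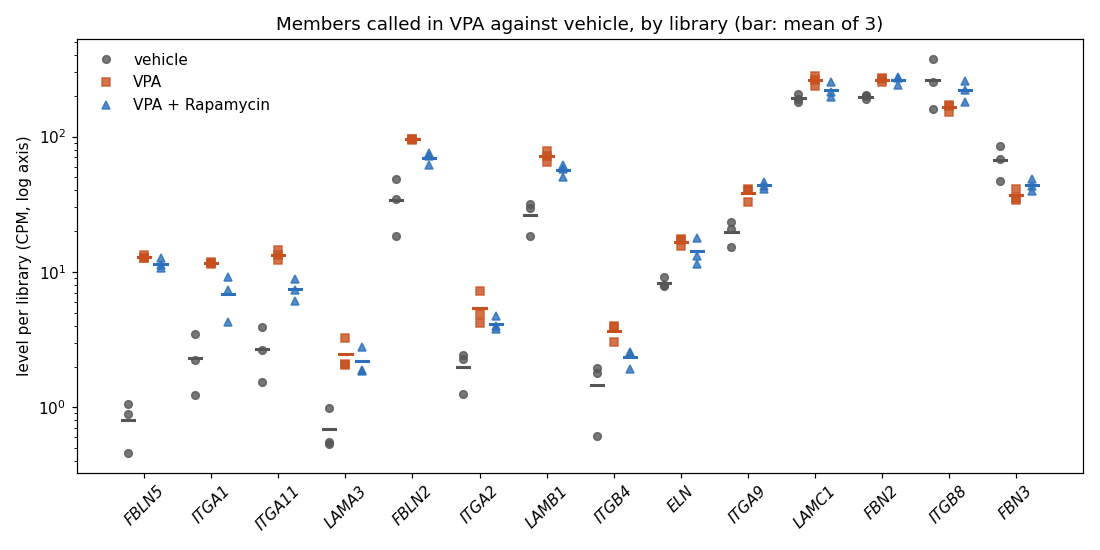
Level in CPM, on a log axis, of the 14 members called in VPA against vehicle, for each library of vehicle (circles), VPA (squares) and VPA + Rapamycin (triangles), with a bar at the mean of 3, ordered from the largest rise (FBLN5, log2 3.98) to the largest fall (FBN3, log2 -0.87). The VPA libraries lie apart from the vehicle libraries in 13 of the 14, and those of ITGB8 overlap.

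Of 9 laminin chains tested, LAMA3, LAMB1 and LAMC1 rose with VPA and none fell, while the major α chains LAMA1 and LAMA5 did not pass the test. LAMB1, on chr7:107923799-108003255, had 534, 281 and 477 counts in the vehicle libraries, 1299, 1164 and 1142 in VPA and 1032, 856 and 912 in VPA + Rapamycin. Its 3 conditions did not overlap, with VPA highest and VPA + Rapamycin between. The log2 fold change was 1.42 ± 0.18 (SE) with VPA (edgeR adjusted p = 0.000264) and 1.07 ± 0.19 with VPA + Rapamycin against vehicle (edgeR adjusted p = 0.0038). With Rapamycin added to VPA it fell by 0.34 on the log2 scale (edgeR adjusted p = 0.0327). Part of LAMB1 lies over DLD on the other strand, which shares 70 exon bases with it and had a log2 fold change of 0.35 with VPA (edgeR adjusted p = 0.0428). Whether the authors' counting used strand is not given in the sources used here. LAMB4, its neighbour 20292 bases away, had 0 to 6 counts in every library.

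LAMC1, the γ chain of nearly all embryonic laminins, had 3497, 2889 and 2931 counts in vehicle, 4713, 4271 and 4191 in VPA and 4240, 3383 and 3379 in VPA + Rapamycin. All VPA libraries were above all vehicle libraries, by a log2 fold change of 0.43 ± 0.10 (edgeR adjusted p = 0.00888), and the VPA + Rapamycin libraries overlapped with VPA. Without VPA library 1 the edgeR adjusted p of this rise was 0.0561. LAMA3, an α chain of epithelial laminins, rose from a low base, with 9, 15 and 9 counts in vehicle, 35, 53 and 36 in VPA and 47, 32 and 30 in VPA + Rapamycin. Both treated conditions lay above vehicle and overlapped with each other, with log2 fold changes of 1.82 ± 0.42 for VPA (edgeR adjusted p = 0.0076) and 1.65 ± 0.42 for VPA + Rapamycin (edgeR adjusted p = 0.0209). The second did not pass without VPA + Rapamycin library 1, 2 or 3 (edgeR adjusted p = 0.105, 0.0568 and 0.0561). LAMB3, the β chain it usually pairs with, had 0 to 12 counts in every library.

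LAMA1, the earliest α chain of the embryo, had 4106, 3153 and 4644 counts in vehicle, 3793, 3527 and 3748 in VPA and 3658, 3238 and 3063 in VPA + Rapamycin. The 3 conditions overlapped, and the log2 fold change with VPA was -0.18 (95% interval from -0.45 to 0.09). LAMA5, the most widespread α chain of later basement membranes, had 3758, 2790 and 2137 counts in vehicle, 2946, 2433 and 3480 in VPA and 2991, 3273 and 2793 in VPA + Rapamycin, with log2 fold changes of -0.05 with VPA (95% interval from -0.42 to 0.32) and 0.06 with Rapamycin added (95% interval from -0.13 to 0.24). Its end overlaps ADRM1 on the other strand over 244 exon bases, and ADRM1 itself had a log2 fold change of 0.64 with VPA (edgeR adjusted p = 0.0061). LAMA4, an α chain of vessel and mesenchymal laminins, had 283, 363 and 611 counts in vehicle, 506, 421 and 542 in VPA and 323, 285 and 382 in VPA + Rapamycin. Vehicle library 3 was above every other library, and without it the log2 fold change with VPA was 0.51 (edgeR adjusted p = 0.0174) where it was 0.14 with it (edgeR adjusted p = 0.695). With Rapamycin added to VPA, LAMA4 fell by 0.54 on the log2 scale (edgeR adjusted p = 0.017), and those libraries did not overlap. Among the remaining chains, LAMB2 was higher in VPA + Rapamycin than in vehicle (log2 0.38, edgeR adjusted p = 0.0341), while LAMA2 and LAMC3, at 11 to 58 counts, passed in no comparison.

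The summed levels of the α and of the β chains were set side by side, a description chosen after the values were seen. The 5 α chains summed to 30.5 ± 2.16 CPM per kb in vehicle (SD, n = 3), 28.9 ± 1.78 in VPA and 27.4 ± 0.778 with VPA + Rapamycin. The 4 β chains summed to 21.5 ± 1.59 CPM per kb in vehicle, 28.96 ± 0.862 in VPA and 30.8 ± 1.57 with VPA + Rapamycin. The β chain libraries of vehicle (19.7 to 22.5) did not overlap with those of VPA (28.0 to 29.6), and the α chain libraries of vehicle (28.2 to 32.5) did overlap with those of VPA (26.9 to 30.2). Of LAMB1 and LAMB2 together, LAMB1 made up 15.04 ± 3.04% of the level per kb in vehicle, 30.4 ± 2.67% in VPA and 22.6 ± 3.37% with VPA + Rapamycin.

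None of NID1, NID2, HSPG2 and AGRN passed in VPA against vehicle by edgeR, where 2 were higher at an unadjusted p under 0.05 and 2 by DESeq2. NID1, nidogen-1, had 4615, 3363 and 2302 counts in vehicle, 5254, 4973 and 4933 in VPA and 4611, 3680 and 3613 in VPA + Rapamycin. The VPA libraries lay above both other conditions, and the vehicle libraries spread widely. Its log2 fold change was 0.49 ± 0.18 with VPA (edgeR adjusted p = 0.0599) and -0.33 ± 0.09 with Rapamycin added (edgeR adjusted p = 0.0287). NID2, nidogen-2, had a log2 fold change of 0.65 with VPA (edgeR adjusted p = 0.0724). NID2 shares 1915 exon bases with RTRAF on the other strand, which had a mean of 2367 counts where NID2 had 603. Its value may depend on how reads in the shared bases were counted, which is not given. HSPG2, which encodes perlecan, and AGRN, which encodes agrin, had log2 fold changes with VPA of 0.15 (95% interval from -0.27 to 0.56) and -0.002 (95% interval from -0.24 to 0.24).

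Among the classes of members, the α chains of collagen-binding integrins had the largest median log2 fold change with VPA, 2.30 over the 3 tested. ITGA10, too low to test here, had means of 0.453 CPM in vehicle and 0.464 in VPA. All 3 that could be tested rose with VPA, ITGA1, ITGA2 and ITGA11. ITGA11, the α chain of a receptor for fibrillar collagens on mesenchymal cells, had 45, 59 and 25 counts in vehicle, 241, 217 and 217 in VPA and 103, 153 and 117 in VPA + Rapamycin. The 3 conditions did not overlap, and VPA + Rapamycin lay between the others. Its log2 fold change was 2.30 ± 0.28 with VPA (edgeR adjusted p = 0.000214), -0.84 ± 0.17 with Rapamycin added (edgeR adjusted p = 0.0062) and 1.46 ± 0.32 for VPA + Rapamycin against vehicle (edgeR adjusted p = 0.0111).

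ITGA1, the α chain of a collagen and laminin receptor, had 21, 34 and 56 counts in vehicle, 196, 191 and 203 in VPA and 153, 73 and 117 in VPA + Rapamycin. Again no library of 1 condition crossed into another, with log2 fold changes of 2.32 ± 0.31 with VPA (edgeR adjusted p = 0.000332), -0.76 ± 0.21 with Rapamycin added (edgeR adjusted p = 0.04) and 1.56 ± 0.39 for VPA + Rapamycin against vehicle (edgeR adjusted p = 0.0185). PELO lies within ITGA1 on the same strand, shares 475 exon bases with it, and had a mean of 278 counts where ITGA1 had 116. How reads in the shared bases were counted is not given. PELO itself had a log2 fold change of 0.19 with VPA (edgeR adjusted p = 0.407). ITGA2, the α chain of the other main collagen receptor, starts 30115 bases beyond the end of ITGA1 on chromosome 5. It was outside the naming rule for VPA and is named for its class, with 41, 19 and 37 counts in vehicle, 121, 79 and 74 in VPA and 79, 65 and 63 with VPA + Rapamycin, and a log2 fold change of 1.43 ± 0.33 with VPA (edgeR adjusted p = 0.00778). The 4 chains of the class, with ITGA10 at 0 to 14 counts, made up 0.772 ± 0.0343% of the level per kb of all α chains in vehicle, 2.80 ± 0.487% in VPA and 1.75 ± 0.0823% with VPA + Rapamycin, so they remained a small share in every condition.

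None of the 3 laminin-binding α chains passed with VPA by edgeR, where 1 was higher at an unadjusted p under 0.05 and 1 by DESeq2. ITGA6, which pairs with β1 or β4 in laminin receptors, had 3306, 3876 and 3268 counts in vehicle, 3180, 3750 and 4079 in VPA and 2863, 3131 and 2591 in VPA + Rapamycin. Its log2 fold change with VPA was -0.01 (95% interval from -0.29 to 0.27), and it fell by 0.34 on the log2 scale with Rapamycin added (edgeR adjusted p = 0.0205), where the libraries did not overlap. ITGA7, whose product forms a laminin receptor best known from muscle, moved the other way with Rapamycin, from 1468, 1408 and 1584 counts in VPA to 1907, 2002 and 1624 (log2 0.33 ± 0.08, edgeR adjusted p = 0.012), with 1895, 1365 and 1074 counts in vehicle. ITGA3, the remaining laminin-binding chain, had a log2 fold change of 0.85 with VPA (edgeR adjusted p = 0.07).

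Of the 3 RGD-binding α chains none passed with VPA by edgeR, by DESeq2 or at an unadjusted p under 0.05, and ITGA8 rose when Rapamycin was added. Its counts were 937, 1054 and 428 in vehicle, 808, 1271 and 1066 in VPA and 1637, 1722 and 1395 in VPA + Rapamycin. All 3 VPA + Rapamycin libraries were above the other 6, with log2 fold changes of 0.61 ± 0.12 against VPA (edgeR adjusted p = 0.00479) and 0.91 ± 0.26 against vehicle (edgeR adjusted p = 0.0322). ITGA5, the α chain of the main fibronectin receptor, and ITGAV, which binds vitronectin and latent TGFβ, passed in no comparison, with log2 fold changes between -0.26 and 0.25. ITGA9, whose product binds tenascin and osteopontin, had 350, 356 and 249 counts in vehicle, 554, 654 and 723 in VPA and 774, 708 and 687 in VPA + Rapamycin. Both treated conditions were above vehicle in every library, by log2 fold changes of 0.93 ± 0.17 (edgeR adjusted p = 0.00175) and 1.12 ± 0.16 (edgeR adjusted p = 0.00134). ITGA4, which shares its ligand class with ITGA9, had 145, 237 and 468 counts in vehicle and passed in no comparison.

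The common β chain did not move with VPA beyond its error. ITGB1 had 5840, 5773 and 6627 counts in vehicle, 6804, 6900 and 6629 in VPA and 7362, 6066 and 6200 in VPA + Rapamycin, with log2 fold changes of 0.08 (95% interval from -0.14 to 0.30) with VPA and -0.03 (95% interval from -0.20 to 0.14) with Rapamycin added. ITGB8, which with αV activates latent TGFβ in neural tissue, had 2716, 3834 and 6085 counts in vehicle, 2562, 2740 and 2989 in VPA and 3042, 3807 and 4100 in VPA + Rapamycin. The vehicle libraries spread more widely than all treated ones and overlapped with VPA, and the VPA + Rapamycin libraries were above VPA. It fell by 0.70 on the log2 scale with VPA (edgeR adjusted p = 0.0391) and rose by 0.43 with Rapamycin added (edgeR adjusted p = 0.0137). The fall with VPA did not pass by DESeq2 (adjusted p = 0.129). Without vehicle library 3 its log2 fold change was -0.34 (edgeR adjusted p = 0.0589), and the call was also lost without vehicle library 2 or any 1 of the VPA libraries (edgeR adjusted p = 0.0824 to 0.129). ITGB5, another partner of αV, had 3764, 2586 and 1389 counts in vehicle and a log2 fold change of -0.31 with VPA (edgeR adjusted p = 0.375). ITGB4, the partner of α6 in hemidesmosomes, had 33, 27 and 10 counts in vehicle and 51, 63 and 70 in VPA (log2 1.31 ± 0.40, edgeR adjusted p = 0.0266), a call lost without any 1 of the VPA libraries (edgeR adjusted p = 0.0503 to 0.0908). GALK1 overlaps it on the other strand without shared exon bases and also rose with VPA (log2 0.82, edgeR adjusted p = 0.00428). ITGB2, ITGB3, ITGB6 and ITGB7, known mainly from leukocytes, platelets and epithelia, had at most 14 counts in any library.

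Among the members tested with VPA, the steepest rise was that of the elastic fibre gene FBLN5, which started low. Where at least 10 counts were required in every library, FBLN5 was left out of the test. FBLN5, whose product fibulin-5 binds both elastin and integrins, lies on chr14:91869412-91947987 and had 15, 7 and 17 counts in vehicle, 225, 206 and 222 in VPA and 179, 218 and 177 in VPA + Rapamycin. The lowest treated library was above the highest vehicle library, and the VPA and VPA + Rapamycin libraries overlapped. In CPM this was 0.800 ± 0.305 (SD, n = 3) in vehicle, 12.9 ± 0.451 in VPA and 11.5 ± 1.07 with VPA + Rapamycin. The log2 fold change was 3.98 ± 0.28 with VPA (edgeR adjusted p = 9.17e-06), rank 27 by p among all genes tested, and 3.81 ± 0.29 for VPA + Rapamycin against vehicle (edgeR adjusted p = 7.25e-05). With Rapamycin added to VPA it was -0.16 (95% interval from -0.47 to 0.14).

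FBLN2, which encodes fibulin-2, a fibulin of basement membranes and microfibrils, had 581, 282 and 783 counts in vehicle, 1611, 1517 and 1692 in VPA and 1210, 1293 and 972 in VPA + Rapamycin. Its 3 conditions did not overlap, and VPA + Rapamycin lay between the others. The log2 fold change was 1.48 ± 0.25 with VPA (edgeR adjusted p = 0.00145), -0.45 ± 0.08 with Rapamycin added (edgeR adjusted p = 0.00289) and 1.03 ± 0.26 for VPA + Rapamycin against vehicle (edgeR adjusted p = 0.0211). FBLN1 and FBLN7, the other members named FBLN, passed in no comparison, and FBLN1 had a log2 fold change of -0.33 with VPA (edgeR adjusted p = 0.126).

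ELN, elastin itself, had 156, 119 and 129 counts in vehicle, 292, 251 and 302 in VPA and 193, 308 and 208 in VPA + Rapamycin. It rose with VPA by a log2 fold change of 0.99 ± 0.16 (edgeR adjusted p = 0.00111), and in VPA + Rapamycin it was above vehicle by 0.75 ± 0.20 (edgeR adjusted p = 0.0253). The fibrillins went different ways. FBN2, the main fibrillin of developing tissue, had 3413, 3040 and 3069 counts in vehicle, 4252, 4358 and 4654 in VPA and 4647, 4097 and 4282 in VPA + Rapamycin, higher in all 6 treated libraries (log2 0.40 ± 0.09 with VPA, edgeR adjusted p = 0.00664). FBN3, a fibrillin of the embryo, fell with VPA from 1437, 1034 and 758 counts to 687, 573 and 598 (log2 -0.87 ± 0.19, edgeR adjusted p = 0.00505) and had 811, 736 and 627 in VPA + Rapamycin. FBN1, the main fibrillin of adult tissue, had 528, 539 and 444 counts in vehicle, 718, 609 and 633 in VPA and 687, 475 and 539 with VPA + Rapamycin, and its log2 fold change was 0.30 with VPA (95% interval from 0.002 to 0.59, edgeR adjusted p = 0.114). Of the level per kb of the 3 fibrillins, FBN3 made up 27.7 ± 5.21% in vehicle, 14.02 ± 1.39% in VPA and 16.4 ± 1.49% with VPA + Rapamycin.

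**Figure D4:**
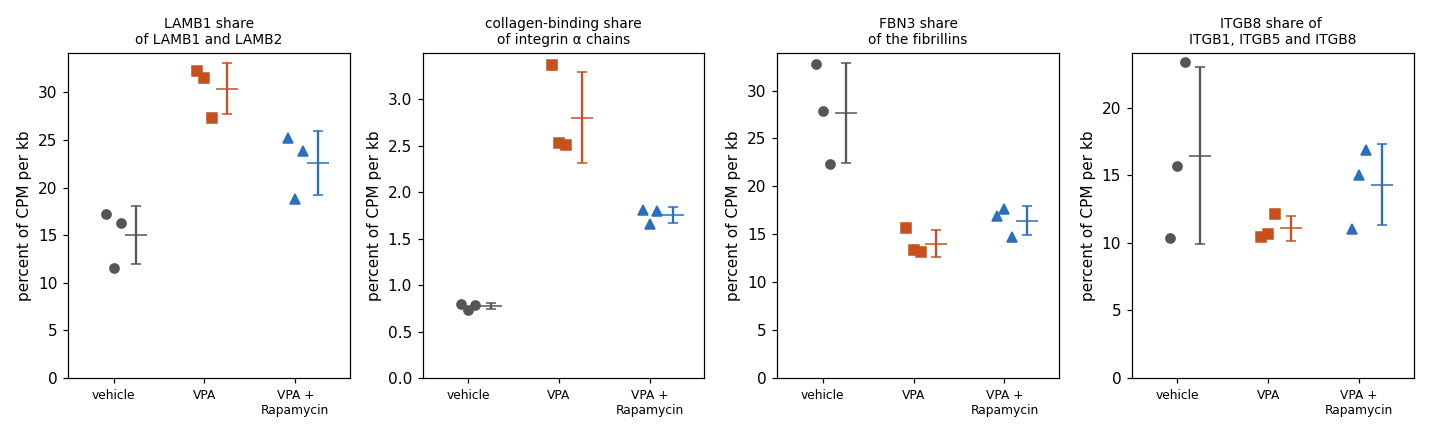
Share of a family's summed level (percent of CPM per kb) in each library, for LAMB1 among LAMB1 and LAMB2, the collagen-binding chains among integrin α chains, FBN3 among fibrillins and ITGB8 among ITGB1, ITGB5 and ITGB8, with the mean and SD of 3 beside the points. Shares were chosen after the values were seen: the LAMB1 share goes from 15.04 to 30.4 and 22.6%, the collagen-binding share from 0.772 to 2.80 and 1.75%, the FBN3 share from 27.7 to 14.02 and 16.4%, and the ITGB8 share (16.5, 11.1 and 14.3%) overlaps between conditions.

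Calls for Rapamycin added to VPA held unevenly when single libraries were left out. FBLN2, ITGA11 and ITGA8 passed with any 1 of the 6 libraries left out. ITGA7 did not pass without VPA library 1 or 2 (edgeR adjusted p = 0.0553 and 0.0765). ITGB8 was lost without VPA library 1 or 2 or VPA + Rapamycin library 3 (edgeR adjusted p = 0.0755, 0.0562 and 0.0975), and ITGA6 without VPA library 2 or 3 or VPA + Rapamycin library 3 (0.127, 0.0871 and 0.0974). LAMA4 needed VPA libraries 1 and 3 and VPA + Rapamycin library 2 (edgeR adjusted p without them 0.0695, 0.0705 and 0.0585). LAMB1 and NID1 were both lost without VPA library 1 or 2 or VPA + Rapamycin library 2 or 3, with edgeR adjusted p of 0.0813 to 0.152 for LAMB1 and 0.0711 to 0.121 for NID1. ITGA1 was lost without any 1 of the VPA libraries or without VPA + Rapamycin library 2 or 3 (edgeR adjusted p = 0.0851 to 0.112). The number of members called lower was 8 without VPA + Rapamycin library 1, 4 without VPA library 3 and 3 without each of the others, and the number called higher was 1 without VPA library 1 or 2. Calls over all genes in these fits are not given here, so these counts are not read as particular to the members.

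**Figure D5:**
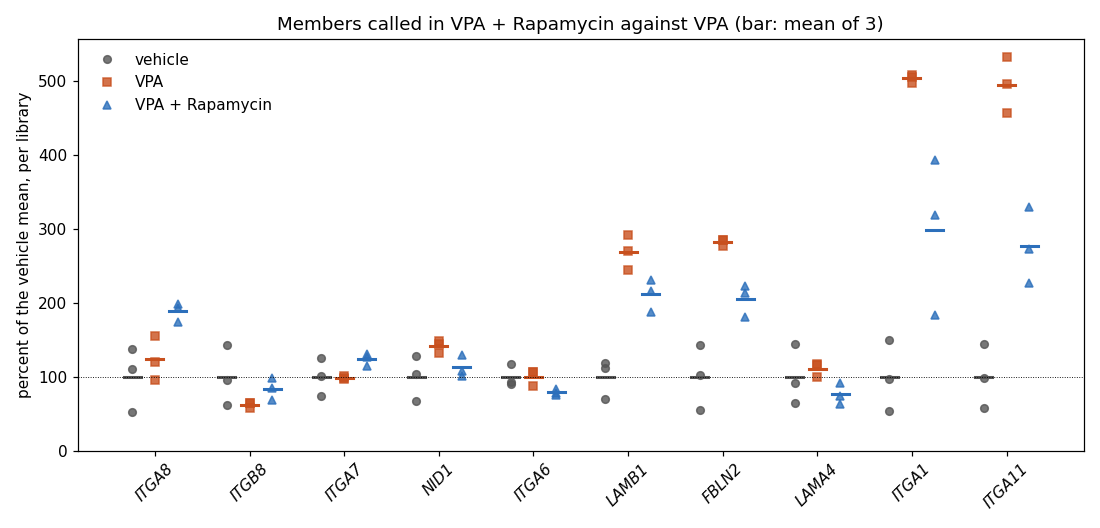
Level of the 10 members called in VPA + Rapamycin against VPA, as a percent of the vehicle mean in each library, ordered from the largest rise (ITGA8) to the largest fall (ITGA11), with a bar at the mean of 3 and a dotted line at the vehicle mean. ITGA1 stands at 504% in VPA and 298% with VPA + Rapamycin and ITGA11 at 496% and 277%, while ITGA8 stands at 124% and 189%.

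Members that were above vehicle in VPA + Rapamycin also differed in how firmly they passed. FBLN5, ITGA9 and LAMB1 passed with each library left out. ITGA11 was lost without VPA + Rapamycin library 2 (edgeR adjusted p = 0.0539), and FBLN2 without VPA + Rapamycin library 1 or 2 (edgeR adjusted p = 0.0763 and 0.0756) and by DESeq2 (adjusted p = 0.0523). ELN was lost without vehicle library 2 or VPA + Rapamycin library 2 or 3 (edgeR adjusted p = 0.0892, 0.122 and 0.0594). FBN2 and ITGA1 were lost without vehicle library 2 or VPA + Rapamycin library 1 or 3, with edgeR adjusted p of 0.079 to 0.105 for FBN2 and 0.0588 to 0.0898 for ITGA1. ITGA8 was lost without any 1 of the VPA + Rapamycin libraries (edgeR adjusted p = 0.0672 to 0.105) and by DESeq2 (adjusted p = 0.0853). ITGA2 and LAMB2 were lost without vehicle library 2 or any 1 of the VPA + Rapamycin libraries, with edgeR adjusted p of 0.0896 to 0.143 for ITGA2 and 0.0779 to 0.151 for LAMB2. The member below vehicle, FBN3 (log2 -0.62, edgeR adjusted p = 0.0396), was lost with upper quartile scaling (edgeR adjusted p = 0.0509). It was also lost without vehicle library 1 or 2 or any 1 of the VPA + Rapamycin libraries (edgeR adjusted p = 0.0728 to 0.141). With the library number as a replicate block, 13 members were higher and 2 lower, ITGA6 being added to FBN3 (edgeR adjusted p = 0.0433). Calls over all genes in the blocked fit are not given here.

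Further genes of the same structures were counted by list, beside the shares of all genes given above (16.4% higher and 15.7% lower with VPA, 3.01% and 3.73% with Rapamycin added). These lists, too, were chosen with earlier results of these data known. Of 16 further basement membrane genes tested, 9 rose (56.2%) and 1 fell (6.25%) with VPA (median log2 0.48), and 3 fell (18.8%) with Rapamycin added, where the fit of all 9 libraries called 2 lower and DESeq2 4. NPNT, nephronectin, an integrin ligand of basement membranes, had 13, 21 and 26 counts in vehicle, 134, 112 and 141 in VPA and 109, 75 and 91 in VPA + Rapamycin (log2 2.59 with VPA, edgeR adjusted p = 0.000163). FREM2 and FRAS1, which form a complex beneath embryonic epithelia, rose by log2 fold changes of 1.42 and 1.09, and COL18A1, a basement membrane collagen, by 1.68. Named after their values were seen, the collagen IV chains COL4A1 and COL4A2, the partner network of laminin, had log2 fold changes of 0.17 and 0.18 with VPA and did not pass.

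Of 17 further elastic fibre genes tested, 9 rose (52.9%) and 3 fell (17.6%) with VPA (median log2 0.44), and none passed with Rapamycin added by edgeR, where 1 was higher and 2 lower at an unadjusted p under 0.05 and DESeq2 called 1 lower. MFAP2, a microfibril glycoprotein, had 1101, 638 and 668 counts in vehicle, 1845, 1681 and 1892 in VPA and 1738, 1770 and 1347 in VPA + Rapamycin (log2 1.10 with VPA, edgeR adjusted p = 0.000597). LOXL1, an enzyme that cross-links elastin, rose by 0.93, and the latent TGFβ binding proteins LTBP1 and LTBP2 rose by 0.65 and 0.89 on the log2 scale with VPA. The 3 that fell, named after their values were seen, were MFAP4, LOXL4 and EFEMP2. Their log2 fold changes with VPA were -2.75, -0.96 and -0.78 (edgeR adjusted p = 0.00286, 0.0291 and 0.00854). MFAP4 was low, with 70, 32 and 36 counts in vehicle and 13, 4 and 4 in VPA. Against vehicle in VPA + Rapamycin, 7 of the 17 were higher (41.2%) and 2 lower (11.8%), where 9.81% of all genes tested were higher and 9.22% lower.

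Of 16 further integrin ligands tested, 10 rose (62.5%) and none fell with VPA (median log2 1.05), where none was lower at an unadjusted p under 0.05 or by DESeq2, and 6 fell (37.5%) with Rapamycin added (median log2 -0.57). Of ligands lower with Rapamycin, DESeq2 called 5 and the fit of all 9 libraries 2. THBS1, thrombospondin-1, had 185, 197 and 207 counts in vehicle, 921, 693 and 956 in VPA and 562, 305 and 463 in VPA + Rapamycin, with log2 fold changes of 2.04 with VPA and -0.92 with Rapamycin added. CYR61, a matricellular ligand of several integrins, had 702, 549 and 530, then 2462, 1603 and 2419, then 565, 440 and 395 counts in the same order, so that VPA + Rapamycin overlapped with vehicle. COL1A2, a chain of collagen I and so a ligand of the collagen-binding integrins, had 1457, 436 and 1671, then 6102, 4785 and 5260, then 2753, 1618 and 1992 counts. TNC, tenascin-C, a ligand of ITGA9, had 54, 20 and 33 counts in vehicle and 142, 94 and 77 in VPA (log2 1.49, edgeR adjusted p = 0.00913).

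Of 22 genes of the complex that joins integrins to actin, 5 rose (22.7%) and 2 fell (9.09%) with VPA, with a median log2 of -0.04, and 3 fell (13.6%) with Rapamycin added. DESeq2 also called 3 lower with Rapamycin, and the fit of all 9 libraries called 0, with 3 lower at an unadjusted p under 0.05. CAV1, caveolin-1, had 23, 54 and 88 counts in vehicle, 469, 558 and 689 in VPA and 213, 334 and 212 in VPA + Rapamycin (log2 3.28 with VPA, edgeR adjusted p = 8.62e-05). TLN2, a talin that activates integrins, rose by 1.22 on the log2 scale and FERMT1, a kindlin of epithelia, by 2.52, while PARVA, a partner of integrin-linked kinase, fell by 0.75. Named after their values were seen, the talin TLN1 and the kindlin FERMT2 had log2 fold changes of 0.01 and -0.18 with VPA and did not pass.

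Markers of other cell types moved with part of these genes, and their part in the results was not tested. Over all genes, 16.4% were called higher and 15.7% lower with VPA, and 3.01% higher and 3.73% lower with Rapamycin added. Of 10 mesenchymal markers tested, 1 (THY1) rose with VPA and 4 fell with Rapamycin added by edgeR, where DESeq2 called 2 lower and the fit of all 9 libraries called 0, with 4 lower at an unadjusted p under 0.05. Their summed level was 50.1 to 108 CPM in vehicle, 92.0 to 111 in VPA and 71.0 to 76.1 in VPA + Rapamycin, with DCN at 0 in 2 vehicle libraries and 1 VPA + Rapamycin library. Muscle markers summed to 13.2 to 23.2 CPM in vehicle, 26.7 to 29.9 in VPA and 15.4 to 20.1 in VPA + Rapamycin. Of 5 tested, 2 were higher in VPA by edgeR, MYOD1 and CNN1, and 1 was lower at an unadjusted p under 0.05. MYOD1 was below the floor in vehicle, with 1, 0 and 0 counts, and had 26, 17 and 14 in VPA. TAGLN stood at 64.0% of its vehicle mean in VPA and ACTA2 at 105%, and MYOG had 0 to 4 counts in every library. Endothelial markers summed to 6.06 to 9.11, 8.70 to 12.7 and 9.10 to 10.1 CPM in the 3 conditions. Of these, ESAM rose with VPA from 0, 1 and 2 counts to 34, 20 and 20, while the defining markers PECAM1 and CDH5 had 0 to 17 counts in every library. Epithelial markers summed to 7.79 to 47.2, 24.4 to 47.9 and 18.6 to 35.4 CPM, with none of 3 tested past the threshold in VPA by edgeR or DESeq2 or at an unadjusted p under 0.05, and TP63 at 0 to 3 counts. The 4 blood and immune markers with counts summed to at most 1.63 CPM, with ITGAM at or below the floor in every library. Neuronal markers went down, 6 of 7 with VPA, from 1246 to 2127 CPM in vehicle to 1041 to 1128 in VPA and 1123 to 1176 in VPA + Rapamycin, and progenitor markers summed to 1834 to 2101, 2225 to 2435 and 1912 to 2087 CPM. Of 6 neural crest and Schwann cell markers tested 4 fell and 1 rose with VPA.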

How the data were processed

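Whole SCOs were sequenced as poly-A selected bulk RNA, 3 libraries in each of 3 conditions. The deposited counts are whole reads per gene, made by the authors with no normalization, with separate tables for each pair of conditions and genes of few reads left out. The submitters' processing notes name HISAT2 2.0.5 and featureCounts 1.5.0-p3. Gene lengths are the authors' deposited values. Coordinates in the tables equal those of GENCODE v29 on GRCh38 for 31552 of 31589 genes and for all 44 members. Left unused were 36 per-library columns (18 of scaled counts and 18 of FPKM) and the authors' own fold changes and p-values.

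Each pair was tested on its own 6 libraries with edgeR 4.0.16 in R 4.3.3 (TMM, filterByExpr, quasi-likelihood F test, Benjamini-Hochberg over all genes tested, adjusted p at most 0.05). Levels are CPM with TMM factors over all 9 libraries. Alternatives were DESeq2 1.42.0, other scalings and filters, a replicate block, all 9 libraries in 1 fit, protein-coding genes only, a minimum fold change and leaving out each library. Tested on simulated counts with 200 genes changed, the procedure recovered 67.7% of the genes changed by log2 1 in VPA against vehicle (17025 genes), 82.3% in VPA + Rapamycin against VPA (17010 genes) and 55.8% in VPA + Rapamycin against vehicle (17019 genes), while 11.0%, 5.41% and 7.89% of its calls were false. Each of these false shares was above the threshold of 0.05. Far more genes were called in VPA against vehicle (2840 higher and 2728 lower) than were changed there, so these rates need not hold for these data.

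Given in full were up to 10 members with the smallest adjusted p at or below 0.05 per comparison, the chains LAMA1, LAMA4, LAMA5, LAMB1, LAMC1, ITGA6 and ITGB1, and ELN, FBN1 and FBN2, and up to 4 genes of each partner list. Other members given with counts, such as ITGA2, ITGB4 and ITGB5, and the partners COL4A1, COL4A2, TLN1, FERMT2, MFAP4, LOXL4 and EFEMP2 were named after their values were seen. Members and lists were chosen with earlier results of these data known. The study's text describes pools of organoids from 3 clones of 1 line for vehicle and VPA, and organoids of 3 clones exposed to VPA + Rapamycin. The labels do not give the clone of a library, so p-values measure the spread between these libraries and not between lines or donors. Some genes are not reported here.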

Additional observations from a re-analysis of the deposited data

How the results depend on the processing

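Over 57 results of a member in a comparison (named or called) and up to 14 alternatives each, 78 of 794 values no longer passed, 9 newly passed and 707 stayed on their side of the threshold. No called result changed sign. In 9 results that did not pass, with estimates near 0, 20 values changed sign. Members called higher and lower in VPA against vehicle were 12 and 2. The lower count was 1 by DESeq2 and 0 under a minimum absolute log2 change of 1, and single libraries left out gave 10 to 17 higher and 1 to 3 lower. In VPA + Rapamycin against VPA (3 higher, 7 lower), both counts were 0 with all 9 libraries in 1 fit and 0 under a minimum absolute log2 change of 1, and single libraries left out gave 1 to 3 higher and 3 to 8 lower. In VPA + Rapamycin against vehicle (12 higher, 1 lower), the lower count was 2 by DESeq2, 2 with all 9 libraries, 0 with upper quartile scaling and 0 under a minimum absolute log2 change of 1, and single libraries left out gave 5 to 15 higher and 0 to 3 lower. Apart from the fold change minimum, which removes calls by its construction, the cause was not tested. Calls over all genes are not given for most of these settings, so these shifts are not read as particular to the members.

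The labels repeat the library numbers in each condition without saying what a number stands for, and it may be the clone. Deviations of same-numbered libraries correlated at -0.056 to 0.146 over 18001 genes, too weakly to show a pairing, which does not exclude a shared clone. With the number as a replicate block, members higher and lower were 15 and 2, 3 and 7, and 13 and 2 in the 3 comparisons, where calls over all genes are not given here. With 3 libraries a condition, some changes of log2 1 were missed in the simulated counts, which held fewer changed genes than were called here. A member that did not pass is therefore not shown to be level.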
